A study of Homo sapiens with 14 samples.

Results

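The comparison described here set the response to gain of beta-catenin against the response to its loss in human cells patterned as progenitors of the medial ganglionic eminence (MGE), the ventral forebrain region that gives rise to many cortical interneurons. For each gene it took the change with doxycycline (Dox effect, hOEplusDox minus hOE-Dox), subtracted the change with knockout (KO effect, hKO minus hWT), and tested the result, called the difference below. Genes entered with a normalized read count of 10 or more in at least 3 of the 14 libraries, which left 17102 genes of the 58051 in the table, 15949 of them with a gene symbol. Genes at the edge of that filter were ADCY8, just inside with a third-highest value of 10.06, and NR2E3, just outside with 9.97.

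All 14 libraries were RNA sequencing libraries of cells derived from H9, a human embryonic stem cell line, collected on day 25. The labels give hWT as wild type (n = 3), hKO as CTNNB1 knockout (n = 5), hOE-Dox as an inducible CTNNB1 overexpression line left without doxycycline (n = 3), and hOEplusDox as the induced state of that line, given 0.1 µg/mL doxycycline between day 17 and day 25 (n = 3). Every group had received inhibitors of TGF-beta and BMP receptors until day 6 (2 µM SB431542 and 200 nM LDN193189), and SHH at 250 ng/mL with purmorphamine at 0.3 µM, activators of hedgehog signalling, between day 10 and day 17. Each group belongs to 1 engineered or parental line, no hWT library received doxycycline, and the labels do not give the form of the transgene, the way the knockout was made or whether replicates were separate cultures. The drug and the transgene therefore cannot be told apart, nor can a line and its genotype, and p-values measure the spread between these libraries, which may be technical.

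Beta-catenin, the product of CTNNB1, links cadherins to the cytoskeleton at cell junctions and carries the canonical WNT signal to the nucleus. Without WNT, a destruction complex built on APC and AXIN proteins marks it for degradation. When a WNT binds frizzled and LRP receptors, beta-catenin accumulates and activates genes together with TCF/LEF factors, among them several inhibitors of the pathway itself. In the developing forebrain WNT signalling is strongest dorsally, near the cortical hem, and weak in the ventral region that the MGE belongs to.

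The recovered read totals per library ran from 5233270 to 5639725, so 1 read was worth a normalized count of 0.866 to 0.947 and a count of 0 allowed up to 3 reads, a value of 2.60 to 2.84, for counting error only. The targeted gene, CTNNB1 (ENSG00000168036; chromosome 3, 41194741 to 41260096, plus strand of hg38), measured 2483, 2779, 2386, 2178 and 2090.3 in hKO, 4392, 3803 and 3248 in hWT, 3084, 3318 and 3633 in hOE-Dox and 26028, 23861 and 31290.0 in hOEplusDox. Its groups did not overlap in either arm, with a Dox effect of 3.01 and a KO effect of -0.67 on the log2 scale, so the transcript moved in the labelled direction in both lines, although the knockout libraries still held reads from the gene. All 8 markers of MGE-like progenitors were detected in every group, and their summed level ran from 15260 to 18920 in hOEplusDox against 18130 to 26180 in the other groups. LHX6 lay between 0.922 and 9.23 in hOEplusDox against 79.5 to 110.9 in hWT, and NES, a progenitor filament gene, between 1124 and 2109 in hOEplusDox against 8284 to 8328 in hWT. Libraries of 1 group correlated at 0.963 to 0.982 (Pearson r of log2 values across genes). The median correlation was 0.961 between hKO and hOE-Dox, 0.949 between hWT and hOE-Dox and 0.931 between hWT and hKO, so the control of the Dox arm resembled hKO more than it resembled the control of the KO arm.

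Folds below are differences of mean log2(normalized count + 1), which understates changes of low genes. A gene is called where the Benjamini-Hochberg adjusted p of limma, over all 17102 genes, is under 0.05. The difference was called higher (more positive with Dox than in the knockout) in 2589 genes, 15.1% of those tested, and lower in 2331, 13.6%. The Dox effect alone was called higher in 2189 genes (12.8%) and lower in 2204 (12.9%), and the KO effect higher in 1136 (6.64%) and lower in 1223 (7.15%). Both arms were called in 1337 genes. In 1115 of these (83.4%) the 2 effects had opposite signs, and in 222 (16.6%) the same sign. The opposed genes were 25.4% of the 4393 genes called with Dox and 47.3% of the 2359 called in the knockout, and across the 17102 genes the effects correlated at a Pearson r of -0.33 and a Spearman rho of -0.37. The arms share no library, and genes are not independent replicates.

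Genes were sorted into classes by these tests. Opposed genes were called in both arms with opposite signs and in the difference: 475 rose with Dox and fell in hKO (2.78%), and 640 fell with Dox and rose in hKO (3.74%). Of genes called in both arms with 1 sign, 73 rose (0.427%) and 149 fell (0.871%). A gene was one-sided where it was called in 1 arm and in the difference, while the 95% interval of its other effect lay within 1 log2 unit of 0. By that rule 919 genes were higher (5.37%) and 797 lower (4.66%) with Dox alone, and 193 were higher (1.13%) and 202 lower (1.18%) in hKO alone. Of the 4920 genes called in the difference, 1636 met no class, among them 660 that neither arm called by itself.

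**Figure D1:**
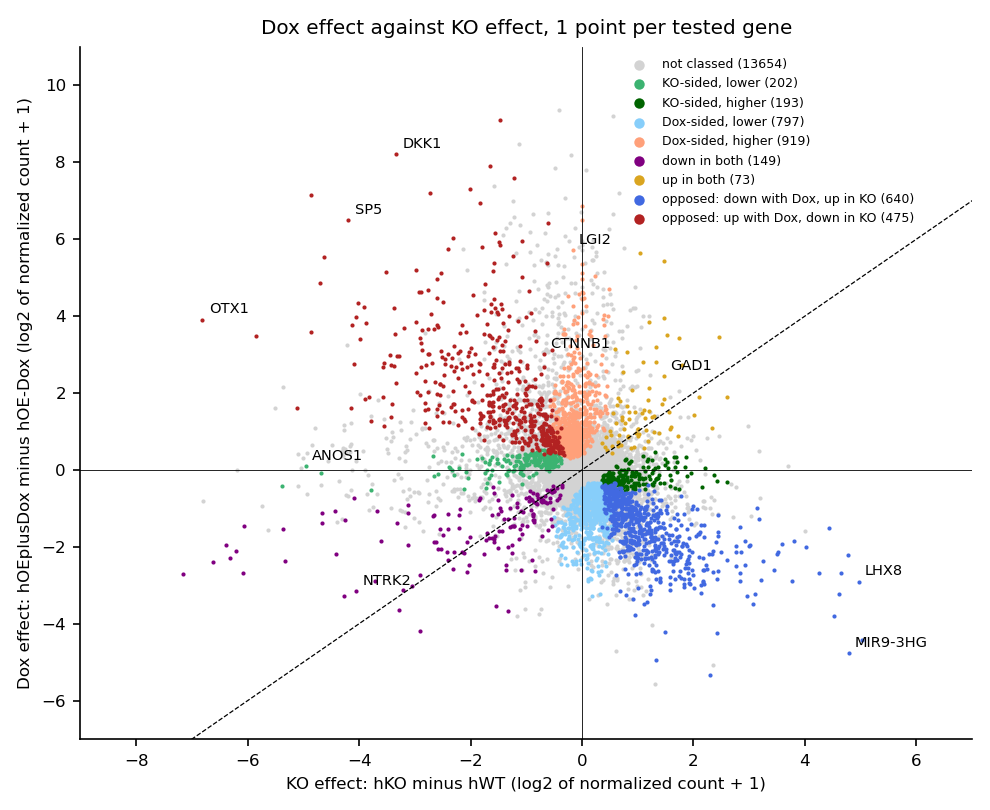
Each of the 17102 tested genes is 1 point, with the KO effect (log2 fold, hKO minus hWT) across and the Dox effect (log2 fold, hOEplusDox minus hOE-Dox) upward; the dashed line marks equal effects and colours mark the classes. The upper left quadrant holds the 475 genes up with Dox and down in hKO, and the lower right quadrant the 640 opposed the other way.

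The 2 controls were not alike, and this bears on every class. The control difference (hOE-Dox minus hWT) was called higher in 586 genes (3.43%) and lower in 396 (2.32%). Of the 475 genes up with Dox and down in hKO, 140 were called lower in hOE-Dox than in hWT and 0 higher. Of the 640 opposed the other way, 341 were called higher in hOE-Dox and 0 lower. Both effects were therefore also computed against 1 control, either hOE-Dox or hWT, for both arms, in which case the 2 effects share its libraries and the difference becomes hOEplusDox minus hKO. With each of these controls in turn, 85 of the 475 genes stayed in their class, and 6 of the 640. The numbers were 1 of 73 for genes up in both, 42 of 149 for genes down in both, 489 of 919 and 436 of 797 for genes higher or lower with Dox alone, and 2 of 193 and 13 of 202 for genes higher or lower in hKO alone. Of the 4920 genes called in the difference, 4126 were also called with the same sign between hOEplusDox and hKO, and 50 had the other sign there.

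**Figure D2:**
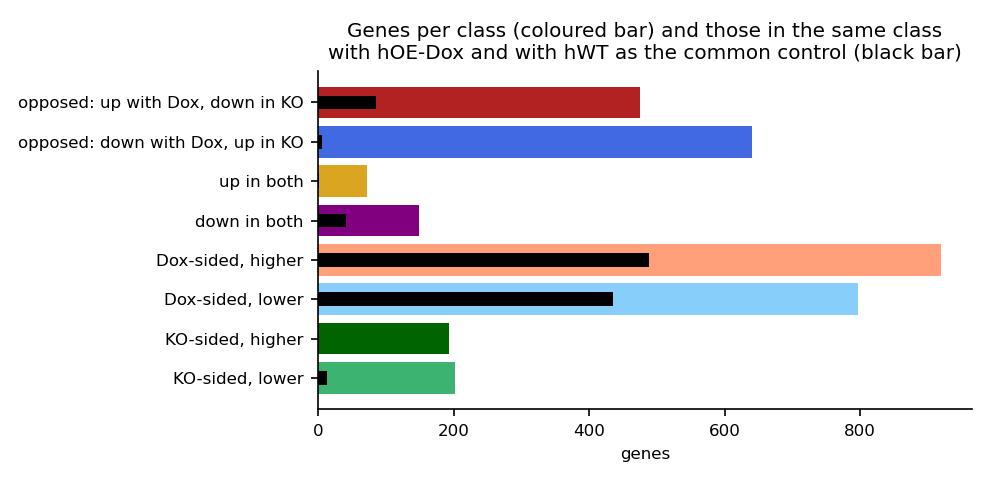
Coloured bars give the number of genes in each class and black bars the number that stayed in that class both with hOE-Dox and with hWT as the common control. The class of genes down with Dox and up in hKO falls from 640 to 6, and the class of genes higher with Dox alone from 919 to 489.

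Targets of the WNT pathway formed the clearest group among genes that rose with Dox and fell in hKO. Of 23 tested WNT feedback targets, 20 were called higher in the difference and 0 lower, with a median difference of 5.28 against 0.05 over all tested genes, and 11 of the 23 were opposed. Their median was 4.22 in the Dox effect and -1.16 in the KO effect. The median control difference of these targets was -0.60. Of the 23, 9 were called lower in hOE-Dox than in hWT and 0 higher, where 2.32% of all tested genes were called lower. Promoter sequences of 3 genes that rose with Dox and fell in hKO, SP5 and DKK1 of that list and FGF18 (an FGF ligand), are shown because each holds a short motif of the kind that TCF/LEF factors bind. Every one comes from RefSeq (GRCh38.p14), runs 5′ to 3′ on the plus strand from 250 bases before the gene start to 50 after it, and they lie at chr2:170715087-170715386, chr10:52314031-52314330 and chr5:171419397-171419696. Capitals mark the matches to CTTTGAA or CTTTGAT on either strand (TTCAAAG and ATCAAAG in the other orientation).
SP5: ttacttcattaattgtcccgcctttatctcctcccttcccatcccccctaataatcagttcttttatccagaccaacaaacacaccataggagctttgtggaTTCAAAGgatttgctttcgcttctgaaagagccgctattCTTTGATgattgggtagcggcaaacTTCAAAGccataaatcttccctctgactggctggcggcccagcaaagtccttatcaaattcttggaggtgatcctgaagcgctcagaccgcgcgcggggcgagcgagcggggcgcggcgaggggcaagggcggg
DKK1: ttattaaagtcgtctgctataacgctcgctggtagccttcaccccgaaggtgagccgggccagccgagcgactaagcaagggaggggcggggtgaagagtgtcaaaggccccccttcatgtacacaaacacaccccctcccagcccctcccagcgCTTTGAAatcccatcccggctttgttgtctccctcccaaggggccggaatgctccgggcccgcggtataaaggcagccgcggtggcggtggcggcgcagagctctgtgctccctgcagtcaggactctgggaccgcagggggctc
FGF18: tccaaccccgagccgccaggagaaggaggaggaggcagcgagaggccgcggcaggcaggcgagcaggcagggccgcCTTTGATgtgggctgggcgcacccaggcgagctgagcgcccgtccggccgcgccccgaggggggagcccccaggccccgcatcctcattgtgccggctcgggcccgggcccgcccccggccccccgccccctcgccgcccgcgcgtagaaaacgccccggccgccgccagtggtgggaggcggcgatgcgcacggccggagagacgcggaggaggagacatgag
SP5 had 3 matches, starting 148, 109 and 84 bases before the gene start, DKK1 had 1, starting 95 bases before it, and FGF18 had 1, starting 174 bases before it. Of 12 WNT feedback targets with a promoter sequence, 4 held a match (33.3%), against 479 of 11625 tested genes (4.12%) and 1906 of all 27305 promoters (6.98%). The 475 genes up with Dox and down in hKO held a match in 17 of 367 promoters (4.63%), close to the share of all tested genes, and the 640 opposed the other way in 18 of 460 (3.91%). Those of the 85 genes that stayed in the class with each control held one in 5 of 66 (7.58%). A match describes letters in this window and is not shown to be a bound site.

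SP5 (ENSG00000204335), a zinc finger transcription factor and direct WNT target, stood at 6.47, 5.67, 2.83, 8.98 and 8.05 in hKO, 120.2, 124 and 139 in hWT, 23.8, 23.1 and 35.4 in hOE-Dox and 1977, 2734 and 2972 in hOEplusDox. The 4 groups did not overlap: hKO lay lowest, then hOE-Dox, hWT and hOEplusDox. The difference was 10.69 (SE 0.39, limma adjusted p = 3e-12), from a Dox effect of 6.50 and a KO effect of -4.19. The control difference of SP5 was -2.20 (limma adjusted p = 0.00017).
AXIN2, the feedback scaffold of the destruction complex (chromosome 17, 65528563 to 65561648, minus strand), kept the same order of groups, at 112, 98.2, 77.5, 95.2 and 84.1 in hKO, 273, 289 and 262 in hWT, 193, 144 and 181 in hOE-Dox and 3044, 3374 and 3232 in hOEplusDox. Its difference of 5.78 (SE 0.20, limma adjusted p = 2.3e-12) combined a Dox effect of 4.22 with a KO effect of -1.56. The control difference of AXIN2 was -0.67 (limma adjusted p = 0.013). LEF1, a DNA-binding partner of beta-catenin chosen after its values were seen, measured 85.9, 76.5, 86.9, 131 and 76.1 in hKO, 414, 514 and 353 in hWT, 198, 211 and 257 in hOE-Dox and 1615, 2018 and 1902 in hOEplusDox, again without overlap between groups.
NKD1, an inhibitor that binds dishevelled, showed an uneven pair of effects. It stood at 178, 212, 134, 221 and 230.0 in hKO, 338, 321 and 236 in hWT, 209, 243 and 243 in hOE-Dox and 17918, 19541 and 22553 in hOEplusDox, a Dox effect of 6.42 and a KO effect of -0.62 (limma adjusted p = 0.017). Its hKO libraries lay below hWT by a small margin and overlapped those of hOE-Dox.

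DKK1, a secreted blocker of the LRP co-receptors (chosen after its values were seen), was low everywhere except in hOEplusDox, at 1.85, 0, 0, 0.898 and 1.79 in hKO, 13.3, 15.2 and 21.7 in hWT, 5.49, 6.48 and 9.97 in hOE-Dox and 1392, 4374 and 2304 in hOEplusDox. All 5 hKO values lay under the floor of 3 reads, so its fitted KO effect of -3.33 depends on the 1 added before the logarithm. TNFRSF19, a receptor of the TNF family, and APCDD1, a membrane-bound WNT inhibitor, were likewise chosen after their values were seen. TNFRSF19 stood at 15.7, 20.8, 29.3, 25.2 and 15.2 in hKO, 392, 521 and 262 in hWT, 119.8, 143 and 131 in hOE-Dox and 2275, 1819.7 and 1406 in hOEplusDox, with effects of 3.77 and -4.13. APCDD1 stood at 115, 102, 116, 111 and 80.5 in hKO, 339, 1846 and 887 in hWT, 149, 163 and 139.6 in hOE-Dox and 3720.4, 7727 and 6128 in hOEplusDox, and its 3 hWT values spread over a wide range that overlapped no other group. BAMBI, a pseudoreceptor that dampens BMP and TGF-beta signals, counted with both the WNT targets and the BMP genes, and measured 10.2, 17.9, 11.3, 14.4 and 9.84 in hKO, 184, 86.7 and 136 in hWT, 27.4, 40.7 and 30.8 in hOE-Dox and 223, 314 and 247 in hOEplusDox.

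The other named genes of this class are the 8 whose smaller effect was largest, SP5 among them, and the members of lists. FZD10, a frizzled receptor (chromosome 12, 130162459 to 130165740, plus strand), stood at 0, 1.89, 0, 3.59 and 2.68 in hKO, 15.1, 163 and 93.6 in hWT, 1.83, 21.3 and 9.97 in hOE-Dox and 669, 1864 and 1572 in hOEplusDox, and its difference of 12.00 had an SE of 1.26 (limma adjusted p = 1.1e-05), and the hWT and hOE-Dox libraries varied widely and overlapped. OTX1, a homeobox factor of the dorsal forebrain and midbrain, ran from 2.68 to 11.3 in hKO through 160.0 to 225 in hOE-Dox and 620.1 to 921 in hWT to 2311 to 3224 in hOEplusDox. The Dox effect of OTX1 was 3.91 and its KO effect -6.81, and none of the 4 groups overlapped.
TMEM132C stood at 4.62, 5.67, 0, 10.8 and 1.79 in hKO, 90.9, 133 and 88.4 in hWT, 67.7, 69.4 and 74.3 in hOE-Dox and 2175, 4483 and 3796 in hOEplusDox, with hOE-Dox just below hWT and a control difference of -0.53 (limma adjusted p = 0.74). GRIK1, a kainate receptor subunit, had a difference of 8.37, GCNT1, an enzyme that branches O-glycans, 8.16, and FOXB1, a forkhead factor, 8.04, where hKO (at 8.50 to 21.6) and hOE-Dox (at 10.9 to 58.3) overlapped. The antisense transcript EHBP1-AS1 had a difference of 9.55, and as the strand setting is not known, its reads cannot be told apart from those of EHBP1.

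**Figure D3:**
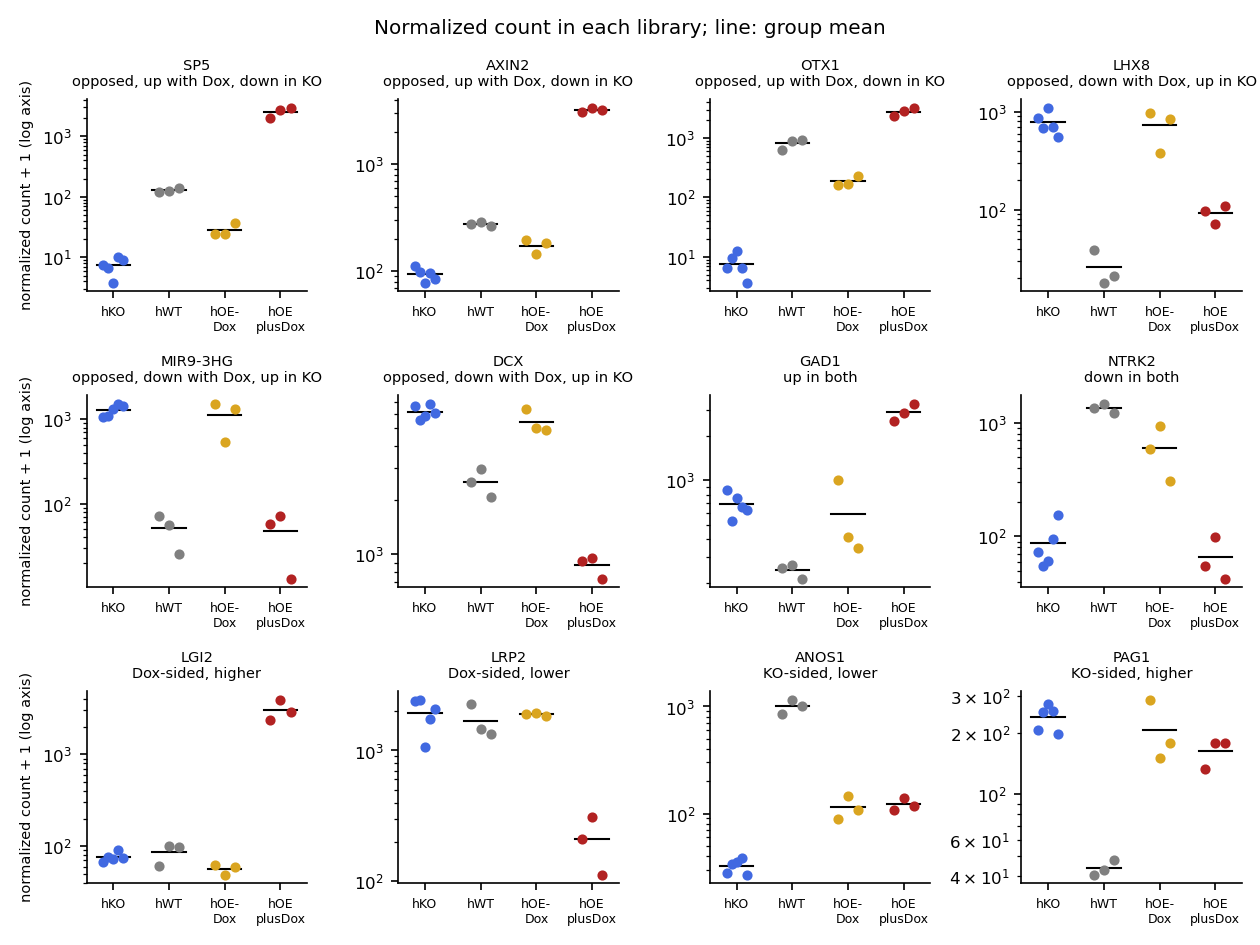
Normalized count plus 1 (log axis) of 12 named genes in each library, 1 panel per gene and 1 point per library, with lines at the group means and the class of the gene above its panel. In SP5, AXIN2 and OTX1 hKO is lowest and hOEplusDox highest, while in LHX8, MIR9-3HG and DCX the hOE-Dox libraries lie at the level of hKO and not of hWT.

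Transcripts of BMP and TGF-beta genes showed the same sense of difference as the WNT targets. Their list mixes ligands, antagonists and target genes and shares BAMBI with the WNT list, so it does not measure the activity of the pathway. Of 20 genes of the BMP and TGF-beta response 15 were called higher in the difference and 2 lower, with a median difference of 3.38, and 9 were opposed. In the KO effect 15 of the 20 were called lower and 1 higher, and in the Dox effect 9 higher and 2 lower. BMP4, a ligand, stood at 1.85, 0.944, 0.945, 4.49 and 2.68 in hKO, 12.3, 21.4 and 15.6 in hWT, 12.8, 12.96 and 9.97 in hOE-Dox and 352, 619.9 and 406 in hOEplusDox. The hWT and hOE-Dox libraries overlapped for BMP4, hKO lay below them and near or under the floor of 3 reads, and hOEplusDox lay far above. MSX1, a homeobox target of BMP, stood at 14.8, 12.3, 5.67, 17.1 and 17.00 in hKO, 103, 75.97 and 121 in hWT, 39.3, 33.3 and 61.6 in hOE-Dox and 717, 445 and 511 in hOEplusDox, with a difference of 6.50 (SE 0.45, limma adjusted p = 8.7e-09) and 4 groups that did not overlap.

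Of 23 FGF ligands and ERK feedback genes, 11 were called higher in the difference and 3 lower (median 1.37), and 13 were called higher with Dox. FGF18 and FGF19 were opposed. FGF18 stood at 0, 1.89, 1.89, 1.80 and 1.79 in hKO, 28.4, 8.94 and 12.1 in hWT, 9.14, 8.33 and 8.16 in hOE-Dox and 276, 198 and 265 in hOEplusDox, with all hKO values under the floor of 3 reads, and FGF19 at 3.69, 7.55, 6.61, 8.98 and 3.58 in hKO, 65.3, 69.7 and 25.1 in hWT, 42.1, 42.6 and 20.9 in hOE-Dox and 368, 263 and 400.0 in hOEplusDox. FGF17, the ligand of the midbrain and anterior forebrain organizers, behaved otherwise: it was called higher in both arms, at 34.2, 20.8, 16.1, 24.3 and 37.6 in hKO, 16.1, 8.94 and 11.3 in hWT, 16.5, 34.2 and 29.01 in hOE-Dox and 1166, 1310.4 and 1536 in hOEplusDox, with a Dox effect of 5.65, a KO effect of 1.05 (limma adjusted p = 0.017) and a difference of 4.61.

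Markers of caudal and of dorsal regions were mostly higher in the difference, through both effects in the first and mainly the KO effect in the second. The caudal median was 1.90 in the Dox effect and -1.22 in the KO effect. Of 16 genes of midbrain, hindbrain and spinal cord, 11 were called higher and 0 lower (median 3.14), and of the 16, 8 were called higher with Dox and 5 lower in hKO. The homeobox factor IRX3 stood at 2.77, 11.3, 5.67, 12.6 and 6.26 in hKO, 17.99, 85.8 and 62.4 in hWT, 7.32, 18.5 and 16.3 in hOE-Dox and 129, 241 and 199 in hOEplusDox, and IRX5, its neighbour in the genome, at 2.77, 7.55, 2.83, 3.59 and 7.16 in hKO, 13.3, 52.7 and 55.4 in hWT, 8.23, 37.9 and 18.1 in hOE-Dox and 115, 126 and 146 in hOEplusDox. In both genes hOEplusDox lay above the other groups, while hOE-Dox overlapped hKO or hWT. Of 18 dorsal telencephalon and hem genes 11 were called higher and 1 lower in the difference (median 3.38), although their median Dox effect was -0.39: 14 were called lower in hKO, 6 lower with Dox and 3 higher with Dox. DMRTA1, a cortical factor, was opposed, with effects of 1.86 and -1.51. PAX6, the factor of cortical progenitors, fell in both arms, at 86.8, 94.4, 142, 139 and 42.95 in hKO, 2431, 2186 and 2592 in hWT, 889, 903 and 924 in hOE-Dox and 286, 548 and 466 in hOEplusDox. Its KO effect of -4.67 was far larger than its Dox effect of -1.11 (limma adjusted p = 0.027), so that its difference of 3.56 was that between 2 falls.

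Of 16 factors of the lateral and caudal ganglionic eminences, 7 were called higher and 2 lower (median 0.87), and 4 were opposed in the sense of the WNT targets. ZNF503, a zinc finger repressor of the striatal lineage, stood at 31.4, 28.3, 28.3, 30.5 and 21.5 in hKO, 484, 383 and 637 in hWT, 172, 177 and 222 in hOE-Dox and 867, 1437 and 1735 in hOEplusDox, in the order hKO, hOE-Dox, hWT, hOEplusDox. PROX1 had effects of 4.03 and -1.89, and FOXP2 of 2.76 and -1.38. The control difference of FOXP2 was -0.02 (limma adjusted p = 0.99), against a median of -0.71 in this class. MAF, an interneuron factor on the MGE list, followed the same course against the trend of that list, at 29.6, 48.2, 50.1, 45.8 and 41.2 in hKO, 357, 294 and 318 in hWT, 220.4, 239 and 172 in hOE-Dox and 533, 1084 and 932 in hOEplusDox.

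Of 17 genes of hypothalamus and ventral diencephalon 6 were called higher and 6 lower (median 0.12), so the group had no common direction. Its opposed members included BARHL2, at 0 to 1.89 in hKO, 4.63 to 12.7 in hOE-Dox, 62.4 to 172 in hWT and 80.9 to 114 in hOEplusDox, and FOXD1, whose hOEplusDox libraries (179 to 333) overlapped those of hWT (229 to 358). FOXA1, a forkhead factor of the floor plate, had its main change with Dox, from 21.9, 123 and 30.8 to 1098, 727 and 589, and a KO effect of -1.63 (limma adjusted p = 0.033).

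Among receptors and enhancers of WNT signalling the directions were mixed. Of 33 WNT ligands and receptors 17 were called higher in the difference and 8 lower (median 0.94), and 8 fell in both arms, the most frequent class on this list. RSPO1, a secreted enhancer, was opposed at 19.4, 26.4, 17.00, 19.8 and 17.00 in hKO, 215, 368 and 289 in hWT, 75.9, 80.5 and 200.3 in hOE-Dox and 216, 239.8 and 331 in hOEplusDox, and its hOEplusDox range lay inside that of hWT. ROR1, a receptor of WNT5A, was opposed with nearly equal effects of 1.66 and -1.62. LGR4, an R-spondin receptor, fell with Dox alone, at 1391, 1523, 1104, 1234 and 1204 in hKO, 1068, 1083 and 898 in hWT, 1364, 1239 and 905 in hOE-Dox and 219.8, 248 and 118 in hOEplusDox. Its KO effect was 0.34 (95% interval -0.08 to 0.76). Of 11 genes listed as secreted WNT antagonists, among them the membrane protein TPBG, 7 were called higher and 2 lower.

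Genes of non-neural cell types were also called higher more often than lower in the difference. The summed markers of mesenchyme and epithelium reached their highest values in hOEplusDox, though the mesenchyme ranges overlapped. Those of endothelium stayed low in every library, and those of neural crest and choroid plexus reached no higher in hOEplusDox than in hOE-Dox. Of 18 mesenchyme and matrix genes 15 were called higher and 1 lower (median 3.91). FBN1, the matrix protein fibrillin, stood at 85.9, 96.3, 105, 136 and 115 in hKO, 284, 396 and 374 in hWT, 186, 213 and 300.1 in hOE-Dox and 703, 863 and 1131 in hOEplusDox, and PRRX1, a mesenchymal homeobox factor, at 2.77, 1.89, 0.945, 1.80 and 0 in hKO, 24.6, 6.26 and 12.99 in hWT, 5.49, 13.9 and 5.44 in hOE-Dox and 310.3, 269 and 229 in hOEplusDox. The summed level of 5 mesenchyme markers ran from 54.8 to 166.3 in hKO, 291.6 to 1401 in hWT, 107 to 1236 in hOE-Dox and 1065 to 5067 in hOEplusDox. All 5 were detected in hOEplusDox. They belong to the list just counted, so the sum is no independent measure of mesenchymal cells. The part of such cells in these results, or in those of the BMP genes above, was not tested. In bulk RNA more cells of a type and more RNA per cell cannot be told apart.
Of 7 epithelial genes 5 were called higher and 0 lower, with KRT19 at 10.2, 9.44, 11.3, 8.08 and 8.95 in hKO, 42.6, 28.6 and 19.1 in hWT, 18.3, 45.3 and 30.8 in hOE-Dox and 114, 253 and 189 in hOEplusDox. KRT8, the other keratin named, varied more, with a difference of 3.11 (SE 0.61). Summed over EPCAM, CDH1 and KRT8, the epithelial level ran from 66.5 to 95.7 in hKO, 74.07 to 148.1 in hOE-Dox, 117.1 to 182.7 in hWT and 191.1 to 429 in hOEplusDox. All of these belong to the epithelial list, so this sum is no independent measure either. KDR, a VEGF receptor, stood at 1.85, 1.89, 1.89, 1.80 and 1.79 in hKO, 20.8, 27.7 and 13.9 in hWT, 10.1, 26.8 and 6.35 in hOE-Dox and 58.2, 121 and 82.03 in hOEplusDox, but PECAM1 and CDH5, which define endothelium, summed to at most 7.44 in any library. SOX10, which defines neural crest, was at 0 in all 14 libraries, where it allows up to 3 reads each, while 7 of 9 tested crest genes were called higher in the difference and 0 lower. TRPM3, a cation channel of the choroid plexus, was opposed, with effects of 1.71 and -3.41 and a control difference of 0.10 (limma adjusted p = 0.9). The choroid plexus markers TTR and FOLR1 summed to 6.40 to 253.6 in hOE-Dox, a spread set by TTR in 1 library, 8.31 to 51.6 in hOEplusDox, 9.83 to 42.6 in hWT and 0.898 to 2.77 in hKO, so the ranges overlapped except that of hKO, which lay below the others. Their part in the result was not tested.

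Progenitor and radial glia genes split. Of 24 tested, 10 were called higher and 7 lower in the difference (median 0.34), and the classes were 5 opposed upward, 1 opposed downward, 1 up in both and 4 down in both. ZIC2, a zinc finger factor of the dorsal neural tube, stood at 68.4, 88.8, 78.4, 83.5 and 51.00 in hKO, 790.5, 716 and 710.3 in hWT, 257, 312 and 447 in hOE-Dox and 1948, 3028 and 2899 in hOEplusDox. SLC1A3, the glutamate transporter of radial glia, stood at 60.97, 63.3, 134, 97.9 and 59.1 in hKO, 457, 776 and 577 in hWT, 155, 299.8 and 188 in hOE-Dox and 6739.9, 4945 and 4082 in hOEplusDox. Both kept 4 groups that did not overlap, in the order hKO, hOE-Dox, hWT, hOEplusDox. SOX9, a factor of neural stem cells and glia, was the member opposed downward, at 1116, 1183, 948, 796 and 869 in hKO, 319, 214 and 243 in hWT, 1069.9, 824 and 1267 in hOE-Dox and 134, 193 and 93.1 in hOEplusDox, with hOE-Dox overlapping hKO.

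The opposite class, down with Dox and up in hKO, was larger but kept fewer of its genes under a common control. Its median effects were -1.43 with Dox and 0.97 in hKO, and its median control difference was 0.79, so hOE-Dox lay nearer to hKO than to hWT in a typical member. MIR9-3HG (chromosome 15, 89361579 to 89424983, plus strand), host gene of a copy of the neural microRNA miR-9, led it, at 1069, 1097, 1331, 1535 and 1453 in hKO, 71.00, 54.5 and 24.3 in hWT, 1505, 536 and 1336 in hOE-Dox and 57.3, 69.7 and 11.98 in hOEplusDox. The hOEplusDox libraries overlapped those of hWT, and the hOE-Dox libraries those of hKO. MIR9-1HG, the host of another copy, showed the same arrangement, with a difference of -9.44 and a control difference of 5.06 (limma adjusted p = 0.0033). Reads of overlapping antisense transcripts may be counted with both.

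LHX8, a LIM homeobox factor of the MGE and its cholinergic neurons, stood at 873, 684, 1107, 704 and 559 in hKO, 37.9, 16.98 and 19.9 in hWT, 985, 379 and 855 in hOE-Dox and 96.96, 69.7 and 109 in hOEplusDox. Its difference was -7.87 (SE 0.47, limma adjusted p = 8.7e-09), and its control difference, 4.81, was close to its KO effect of 4.97. FZD5, a frizzled receptor of the ventral and anterior forebrain, ran from 142 to 735 in hWT and 377 to 569 in hOEplusDox to 2451 to 3032 in hOE-Dox and 2480.0 to 4077 in hKO. SHISA2, which retains frizzled and FGF receptors inside the cell, had a difference of -5.26 and a control difference of 2.71. The noncoding transcripts LINC01551 and LINC02282 had differences of -7.32 and -6.92 with control differences of 4.21 and 3.84. LINC02282 lies within LINC01551 on the other strand. As the strand setting is not known, their reads cannot be told apart, and they may not be separate results.

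Neuronal genes were the group most often found in this class. Among 25 structural and synaptic genes of neurons, 21 were called lower in the difference and 3 higher (median -2.16), and 17 were opposed downward. DCX, a microtubule protein of young neurons, stood at 6620.3, 5530.5, 5842, 6834 and 6044 in hKO, 2510.5, 2966 and 2063 in hWT, 6362, 5027 and 4897 in hOE-Dox and 911, 954 and 733 in hOEplusDox. STMN2, a tubulin regulator of growth cones, stood at 3966, 3645, 4488, 3778 and 4172 in hKO, 1846, 1943 and 1633 in hWT, 3169, 3844 and 2915 in hOE-Dox and 881, 781 and 670.1 in hOEplusDox. In both genes hOEplusDox lay below hWT, and hWT below hKO and hOE-Dox, with control differences of 1.12 and 0.87. The summed level of the neuron markers DCX, STMN2, TUBB3 and MAP2 was 2773 to 3326 in hOEplusDox, 6734 to 8205 in hWT, 12940 to 15030 in hOE-Dox and 13050 to 16330 in hKO, and since these 4 genes belong to the list, the sum is no independent measure of the number of neurons, whose part was not tested. CNTN2, an axonal adhesion protein, went against the list: it rose with Dox and fell in hKO, at 156, 116, 139.8, 169 and 102 in hKO, 393, 458 and 307 in hWT, 518, 713 and 501 in hOE-Dox and 6419, 7107 and 5422 in hOEplusDox.
Of 18 proneural and neurogenic factors 4 were called higher and 8 lower (median -1.27). MYT1L, a neuronal zinc finger factor, ran at 4.65 to 11.1 in hOEplusDox, 26.5 to 47.4 in hWT, 62.6 to 97.8 in hOE-Dox and 58.5 to 113 in hKO, and its relative MYT1 had effects of -2.71 and 0.97. Of 14 MGE identity genes 2 were called higher and 9 lower (median -2.36), and 5 were opposed downward, among them GBX1, at 0 to 0.923 in hOEplusDox, 5.36 to 8.66 in hWT, 25.5 to 51.9 in hKO and 29.6 to 67.99 in hOE-Dox. Over those 14 genes the median effect was -2.20 with Dox and 0.40 in hKO, and the median control difference was 1.11. With Dox 10 were called lower and 1 higher, and in hKO 5 were called higher and 3 lower. Against hWT, hOE-Dox was called higher in 5 of the 14 and lower in 0.

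Of 20 genes of the NOTCH pathway 5 were called higher and 9 lower in the difference (median -0.48). NOTCH1, a receptor, stood at 2965, 3147, 2774, 3024 and 3056 in hKO, 1969, 1327 and 1204 in hWT, 2811, 2291 and 3019 in hOE-Dox and 997, 1156 and 841 in hOEplusDox, and HES5, its transcriptional target in neural progenitors, at 1012, 1015, 957, 1229 and 1238 in hKO, 523, 468 and 506 in hWT, 1298, 1314 and 1845 in hOE-Dox and 208, 166 and 61.8 in hOEplusDox. For both, hOEplusDox lay below hWT, and hWT below hKO and hOE-Dox. DTX1, a ubiquitin ligase of the pathway, was one of the genes with the reverse order throughout, hOEplusDox below both controls and hKO above both, with effects of -1.87 and 0.87.

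The list of destruction complex and catenin genes, which leaves out AXIN2 and the other WNT feedback targets counted above, had no common direction. Of 19 genes of the destruction complex and catenins 2 were called higher and 5 lower (median -0.01), where 15.1% and 13.6% of all tested genes were, 2 were opposed downward and 1 upward. APC, the scaffold that presents beta-catenin for phosphorylation, stood at 1562, 1659, 1354, 1371 and 1672 in hKO, 724, 679 and 541 in hWT, 1394, 973 and 997 in hOE-Dox and 512, 483 and 403 in hOEplusDox, with a Dox effect of -1.25, a KO effect of 1.24 and a control difference of 0.78. APC2, its neuronal relative, had effects of -1.63 and 0.55 (limma adjusted p = 0.04). CTNNA1, alpha-catenin, which ties beta-catenin to actin, went the other way, at 1497, 1692, 1234, 1557 and 1508 in hKO, 2050.5, 2267 and 2048 in hWT, 1425, 1771 and 1617 in hOE-Dox and 2739, 2459 and 2485 in hOEplusDox, a difference of 1.19.
Of 14 TCF/LEF factors and coactivators 2 were called higher and 5 lower (median -0.27). TCF7L1, a TCF factor known chiefly as a repressor, had effects of -0.72 and 0.53, and TLE5, a short Groucho family protein, of -0.35 and 0.59. FRZB, a secreted WNT antagonist, stood at 1419.8, 1629, 1177, 1734 and 1626 in hKO, 154, 224 and 139 in hWT, 860.5, 545 and 817 in hOE-Dox and 476, 368 and 282 in hOEplusDox. Its KO effect of 3.15 exceeded its Dox effect of -0.98, and hOEplusDox stayed above hWT. Adherens junction genes in this class included NECTIN3, an adhesion protein, with a difference of -2.61, and AFDN, which binds nectins to actin, with -1.80. Of 27 adherens junction genes 5 were called higher and 7 lower (median -0.03). DISP2, a relative of the protein that releases hedgehog ligands, had a difference of -2.98, and HMGA2, a chromatin protein of early progenitors, had effects of -1.01 and 0.40.

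The 6 genes that were down with Dox and up in hKO against each control were PEG10, HTATSF1, RADX, HPCAL4, SERTAD4BP and SLC1A6, named after their values were seen. PEG10, an imprinted gene derived from a retrotransposon (chromosome 7, 94656325 to 94669695, plus strand), stood at 10143, 12239, 13568, 14897 and 11096 in hKO, 5680.0, 6244 and 7258 in hWT, 9483, 6184 and 8776 in hOE-Dox and 2609, 2470.3 and 2276 in hOEplusDox. RADX, a protein of stalled replication forks, stood at 1201, 1437, 1407, 1189 and 1196 in hKO, 245, 313 and 298 in hWT, 799, 652 and 955 in hOE-Dox and 199, 127 and 165 in hOEplusDox. In RADX hOEplusDox was lowest, then hWT, hOE-Dox and hKO, without overlap, whereas in PEG10 the hWT and hOE-Dox ranges overlapped. HPCAL4, a neuronal calcium sensor, had a difference of -4.36, SERTAD4BP, a transcribed pseudogene, -4.58, HTATSF1, a splicing and elongation cofactor, -1.55, and SLC1A6, a neuronal glutamate transporter, -1.39. Counted over all genes, the order with hKO below both controls and hOEplusDox above both, without overlap, held in 123 genes (0.719%), 111 of them in the class up with Dox and down in hKO, and the reverse order in 49 genes (0.287%), 36 of them in the class down with Dox and up in hKO. These orders use the values that define the classes and describe them only.

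Within the opposed classes the Dox effect was more often the larger one, in 336 of the 475 genes and in 485 of the 640. The groups were apart in both arms in 419 of the 475 genes and in 559 of the 640.

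Genes that moved the same way in both arms were fewer, 222 in all. For 76 of them (23 up, 53 down) the 95% interval of the difference lay within 1 log2 unit of 0, so the effects were of like size to that margin. For 58 the difference was called, and for 89 neither held, so the sizes could not be ordered there (1 gene counted in both of the first sets). GAD1, the enzyme that makes GABA, rose in both arms, and stood at 864, 532, 758, 656 and 625 in hKO, 253, 265 and 215 in hWT, 1009.6, 414 and 349 in hOE-Dox and 2525, 2848 and 3313 in hOEplusDox, with effects of 2.45 and 1.47 and a difference of 0.97 (limma adjusted p = 0.074, 95% interval 0.15 to 1.80). Its hWT libraries lay lowest and its hOEplusDox libraries highest, and hKO and hOE-Dox overlapped. The difference of GAD1 was called, at 1.44 (limma adjusted p = 0.00025), without hOE-Dox 1, the highest of its controls, and at 2.09 (limma adjusted p = 1e-05) when hOEplusDox was set against hKO directly. Of the 14 tested GABAergic genes 3 were called higher and 8 lower with Dox, 3 higher and 3 lower in hKO, and 3 higher and 7 lower in the difference (median -1.17).
SLC32A1, the vesicular GABA transporter, fell with Dox from 221, 114 and 167 to 19.4, 32.5 and 15.7. ERBB4, the neuregulin receptor of interneurons, fell in both arms, from 517, 963 and 599 in hWT to a mean of 38.7 ± 8.68 (SD, n = 5) in hKO and from 165, 201 and 141 in hOE-Dox to 106, 119.9 and 79.3 in hOEplusDox.

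The transcription factor NFIA rose in both arms, at 54.5, 36.8, 83.1, 52.1 and 34.9 in hKO, 17.04, 7.15 and 4.33 in hWT, 70.4, 24.1 and 43.5 in hOE-Dox and 398, 453 and 568 in hOEplusDox, effects of 3.45 and 2.46. SEMA5A, a guidance protein, had effects of 1.42 and 2.01, and CSMD2 of 1.71 and 1.43. In these 3 genes hOE-Dox lay at or near the level of hKO, with control differences of 2.22 (limma adjusted p = 0.0051), 1.69 (limma adjusted p = 0.0017) and 1.40 (limma adjusted p = 0.072), so that the Dox libraries stood higher than the knockout. Set against hKO directly, hOEplusDox was higher by 3.21 for NFIA (limma adjusted p = 4.6e-06) and by 1.68 for CSMD2 (limma adjusted p = 0.0031), where the differences of 0.98 and 0.28 were not called. The difference of SEMA5A changed sign, from -0.59 to 1.10, when hOEplusDox was set against hKO directly (limma adjusted p = 0.0024).

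Of the genes that fell in both arms, NTRK2, the BDNF receptor, stood at 71.1, 53.8, 59.5, 94.3 and 154 in hKO, 1339.5, 1470.2 and 1228 in hWT, 581, 926 and 305 in hOE-Dox and 53.6, 98.5 and 41.5 in hOEplusDox. Its difference of 0.89 was not called (limma adjusted p = 0.28) except with the replicate number as a block (1.28, limma adjusted p = 0.027), and the sign depended on the control. The hOEplusDox and hKO libraries overlapped, with a direct difference of -0.41 (limma adjusted p = 0.46). CDH20, a cadherin, stood at 12.9, 19.8, 34.01, 31.4 and 14.3 in hKO, 308, 108 and 249 in hWT, 167, 199 and 214 in hOE-Dox and 14.8, 53.9 and 11.98 in hOEplusDox, with a control difference of -0.07 (limma adjusted p = 0.97) and effects of -3.11 and -3.21. ADCY2, an adenylyl cyclase, had effects of -3.02 and -3.05. The difference was 0.03 for ADCY2 (95% interval -1.19 to 1.25) and 0.10 for CDH20 (95% interval -1.35 to 1.56), so neither met the margin of 1 log2 unit for like size. VCAM1, an adhesion protein of neural stem cells, stood at 27.7, 38.7, 315, 94.3 and 59.95 in hKO, 543, 809 and 822 in hWT, 147, 113 and 107 in hOE-Dox and 9.23, 23.2 and 2.77 in hOEplusDox, where 1 hKO library lay well above the others. Its difference of -0.36 (limma adjusted p = 0.85) became -2.90 (limma adjusted p = 0.0088) when hOEplusDox was set against hKO directly. NR2E1, a nuclear receptor of forebrain progenitors, had effects of -4.19 and -2.91, and its difference of -1.28 (limma adjusted p = 0.35) became -2.19 (limma adjusted p = 0.019) by the direct comparison. For ADCY2 the sign depended on the control, and hOEplusDox lay -1.07 from hKO directly (limma adjusted p = 0.042).

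Genes that changed with Dox alone kept the largest share of their class under a common control. LGI2 (chromosome 4, 24998847 to 25030946, minus strand), a secreted neuronal protein, stood at 65.6, 74.6, 70.9, 88.9 and 73.4 in hKO, 59.6, 100.1 and 97.02 in hWT, 62.2, 48.1 and 58.02 in hOE-Dox and 2385, 3934 and 2859 in hOEplusDox. Its KO effect was -0.16, with a 95% interval of -0.57 to 0.24, and its difference 5.89 (SE 0.29, limma adjusted p = 9e-11). PATJ, a scaffold of the apical polarity complex, stood at 162, 139.8, 87.9, 108 and 113 in hKO, 108, 95.6 and 101 in hWT, 97.8, 98.1 and 112 in hOE-Dox and 3924, 2566 and 4007 in hOEplusDox, and DSP, the desmosome protein desmoplakin, at 66.5, 122, 62.4, 91.6 and 109 in hKO, 153, 93.8 and 51.98 in hWT, 96.9, 147 and 106 in hOE-Dox and 2249, 3260.3 and 2878 in hOEplusDox. In all 3 genes the hKO libraries overlapped hWT. TRIL, a Toll-like receptor partner, had a Dox effect of 4.54 and a KO effect of -0.25.

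Other genes fell with Dox alone. LRP2, an endocytic receptor that takes up SHH in the ventral forebrain, stood at 2370.3, 2446, 1057, 1737 and 2085 in hKO, 2264, 1459.5 and 1326 in hWT, 1916, 1916 and 1822 in hOE-Dox and 208, 308 and 112 in hOEplusDox. Its hOEplusDox libraries lay below all others, and its KO effect was 0.18 (95% interval -0.49 to 0.85). OLIG1, an oligodendrocyte lineage factor, had a Dox effect of -2.73, CRB1, an apical polarity protein, of -2.83, and NTN1, the guidance protein netrin, of -2.31. Axon guidance genes had no common direction, with 12 of 32 called higher and 11 lower in the difference (median -0.39). SEMA3E, another guidance gene, rose from 4.57, 12.96 and 3.63 to 1358, 1574 and 1179 with Dox, with a KO effect of -1.23 just past the threshold (limma adjusted p = 0.049).

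Of 13 mitochondrially encoded genes 5 were called higher in the difference and 0 lower (median 0.34), and 5 were called with Dox and 0 in hKO. MT-CO2, a subunit of cytochrome oxidase, stood at 6212, 6925, 8449.8, 7548 and 6763 in hKO, 7149, 9886 and 9103 in hWT, 6204, 6043 and 7241 in hOE-Dox and 11692, 8683 and 10184 in hOEplusDox, where hKO and hOE-Dox overlapped and the difference was 0.92. Nuclear copies of mitochondrial genes could share its reads. HLA-E, a class I antigen presenting protein of a family with similar members, had effects of 1.71 and -0.91. Of 16 interferon and HLA genes 6 were called higher in the difference and 0 lower (median 1.22).

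Retinoid genes moved both ways, 8 of 16 called higher and 3 lower (median 0.99). CRABP2, a retinoic acid carrier, was opposed downward with effects of -1.84 and 0.93. Of 20 genes of the unfolded protein and amino acid stress response 11 were called higher and 0 lower (median 0.90): HSPA5, the chaperone BiP, had effects of 0.59 and -0.47, XBP1, a stress factor, of 0.66 and -0.63, and VLDLR, a reelin receptor, a Dox effect of 1.60.

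In the named genes that changed in the knockout alone, hOE-Dox and hOEplusDox lay on the same side of hWT, toward hKO. ANOS1, a secreted matrix protein, stood at 26.8, 33.05, 34.01, 37.7 and 25.9 in hKO, 850.1, 1157 and 1011 in hWT, 87.8, 145 and 108 in hOE-Dox and 108, 138 and 116 in hOEplusDox. Its KO effect was -4.96 and its Dox effect 0.11 (95% interval -0.32 to 0.54), with a control difference of -3.15. NR2F2, a nuclear receptor of the caudal ganglionic eminence, ran at 111 to 261 in hKO, 1038 to 1329 in hOE-Dox, 655 to 2069.8 in hOEplusDox and 3712 to 4164 in hWT. TPBG, a membrane inhibitor of WNT signalling, ran at 50.3 to 85.9, 539 to 930.1, 355 to 631 and 2535 to 3023 in that order of groups, and GNG12, a G protein subunit, had a KO effect of -3.79. In each of these 4 genes hKO lay below all other libraries.
GLI1 and GLI2, effectors of hedgehog signalling, showed a like pattern without meeting the interval for a one-sided gene. GLI1 stood at 8.31, 8.50, 4.72, 8.08 and 12.5 in hKO, 126, 268 and 157 in hWT, 45.7, 49.04 and 31.7 in hOE-Dox and 188, 40.9 and 82.03 in hOEplusDox, with a KO effect of -4.27 and a Dox effect of 1.04 (limma adjusted p = 0.096), and GLI2 had effects of 0.54 and -3.50. Of 16 hedgehog pathway genes 7 were called higher in the difference and 1 lower (median 1.34), with 6 called lower in hKO. CDH8, a cadherin, was opposed, with a difference of 4.02 and a KO effect of -2.52.

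Higher in hKO alone were PAG1, a membrane adaptor, at 205, 250.2, 273, 254 and 196 in hKO, 39.8, 42.01 and 46.8 in hWT, 288, 149.9 and 177 in hOE-Dox and 132, 177 and 177 in hOEplusDox, and MPPED2, with a KO effect of 2.15 and a Dox effect of -0.44. For PAG1 the hWT libraries stood apart from the other 11. The sialyltransferase ST8SIA3 had a KO effect of 1.73, the Groucho corepressor TLE2 of 2.20, and SPATA18, a p53 target, of 1.47. The difference of TLE2, -2.14, moved to -0.58 (limma adjusted p = 0.099) when hOEplusDox was set against hKO directly. Of 25 CDK inhibitors and p53 targets 5 were called higher and 6 lower in the difference (median -0.03).

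Chromosome X held a larger share of the genes higher in hKO alone than of all tested genes, a pattern looked for after the data were seen. Of those 193 genes 37 were on X (19.2%), against 686 of 17102 tested genes (4.01%), and of the 640 genes down with Dox and up in hKO 50 were on X (7.81%). In all of those 50, and in 36 of the 37, the mean of hOE-Dox lay above that of hWT. Most of them came from 1 stretch of hg38, from 100 to 140 Mb, which held 210 tested genes, 29 of the 37 and 30 of the 50. Over that stretch the median KO effect was 0.44, the median control difference 0.38 and the median Dox effect -0.06, uneven along the stretch (a median KO effect of 0.116 from 110 to 120 Mb and 0.674 from 130 to 140 Mb), while over the other 476 genes of X the median KO effect was 0.0. Each library's median departure from the gene means there was -0.417 to -0.189 in hWT, 0.084 to 0.2 in hKO, 0.07 to 0.119 in hOE-Dox and -0.088 to 0.051 in hOEplusDox. The 3 hWT libraries lay below the other 11 there. MAP7D3, a microtubule protein in that stretch (chromosome X, 136213220 to 136256482, minus strand), stood at 386, 475, 348, 355 and 351 in hKO, 125, 136 and 92.7 in hWT, 277, 252 and 277 in hOE-Dox and 269, 242 and 259.9 in hOEplusDox. HTATSF1, RADX and DCX, named above, lie in it too. DCX, one of the summed neuron markers, had a KO effect of 1.31 and a control difference of 1.12. The KO effect and the control difference share the hWT libraries, so their like course along the chromosome is no independent evidence, and a line cannot be told apart from its genotype here.

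**Figure D4:**
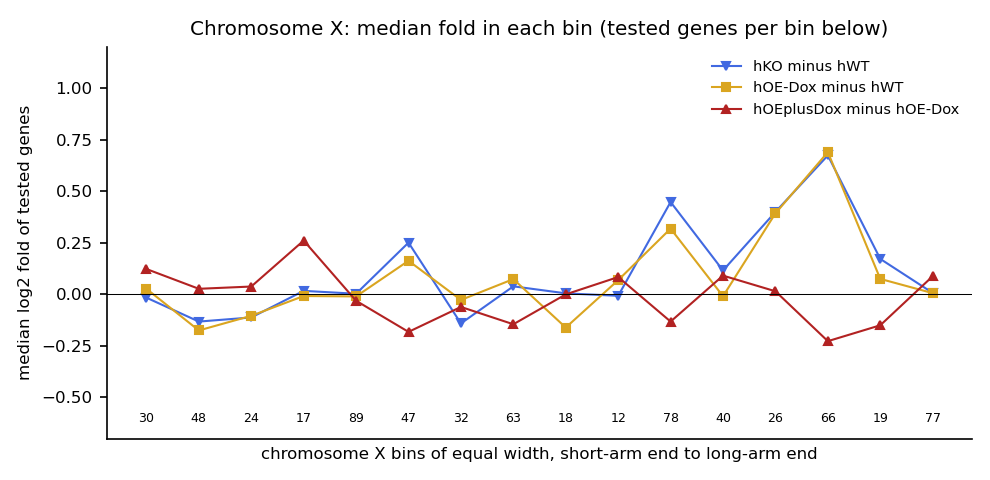
Median log2 fold of the tested genes in 16 bins of equal width along chromosome X, from the short-arm end at left to the long-arm end at right, for hKO minus hWT, hOE-Dox minus hWT and hOEplusDox minus hOE-Dox, with the number of genes per bin below. The first pair share the hWT libraries and rise together, to 0.674 and 0.690, in the bin where the Dox effect is -0.227.

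Cell cycle, glycolysis and ribosome lists had few calls in the difference. Of 40 genes of G2 and mitosis 1 was called higher and 1 lower (median 0.13). In hKO 13 of the 40 were called lower, against 7.15% of all tested genes. With Dox 6 of the 40 were called lower, close to the 12.9% of all tested genes. Of 36 genes of G1/S and DNA replication 1 was called higher and 1 lower (median 0.04). CCNB1, a mitotic cyclin, was the G2 gene called higher, at 0.66 (limma adjusted p = 0.047), a call lost with either common control (0.29, limma adjusted p = 0.19), with upper-quartile scaling, with the replicate number as a block (0.62, limma adjusted p = 0.059) and without several single libraries, and CDC25B, the phosphatase that starts mitosis, the one called lower, at -1.03. CCNE1, a G1 cyclin, had a difference of 1.24. Of 32 cytosolic ribosome proteins 1 was called higher and 0 lower (median 0.15). Of 21 hypoxia and glycolysis genes 1 was called higher and 0 lower (median -0.32), and it was HK1, a hexokinase, at 0.87. The median SE of the difference over all genes was 0.302, which sets the size of change that this number of libraries can detect. Of the lists not described above, the choroid plexus genes had 5 of 10 called higher and 0 lower, endothelium and blood 2 of 3 and 0, muscle 2 of 3 and 0, glia 2 of 5 and 2, pluripotency 0 of 7 and 3, and immediate early genes 4 of 17 and 3.

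**Figure D5:**
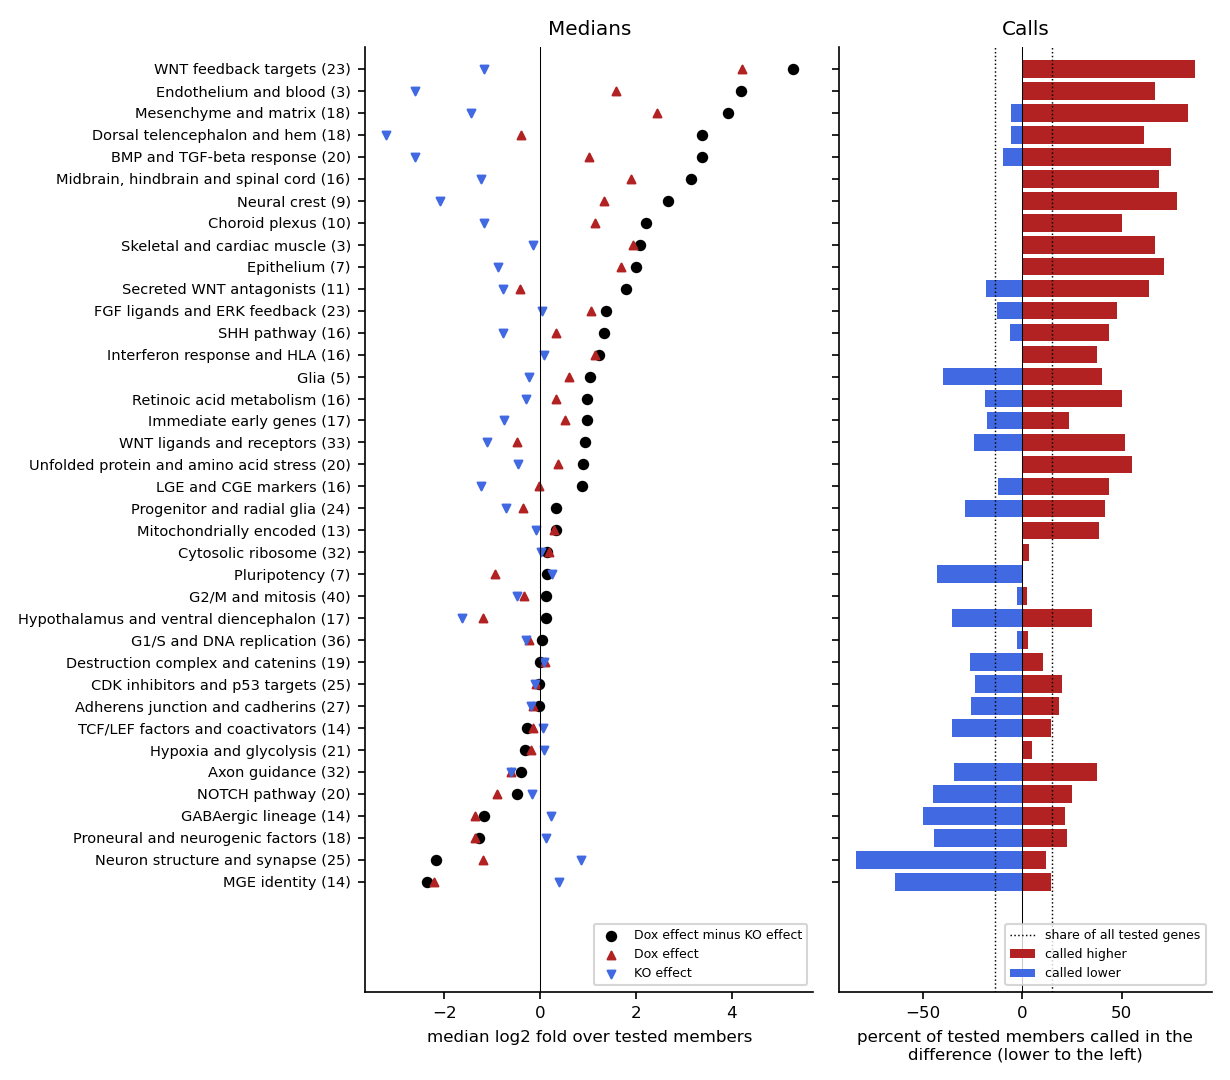
Left, median log2 fold over the tested members (number in brackets) of 38 gene lists for the difference, the Dox effect and the KO effect. Right, the percent of tested members called higher (to the right) or lower (to the left) in the difference, with dotted lines at the shares over all tested genes, 15.1 and 13.6; WNT feedback targets stand at one end, and neuron structure and MGE identity at the other.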

How the data were processed

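RNA sequencing of 14 libraries in 4 groups was analysed from 1 deposited table. The deposited unit is a normalized signal, in which the authors divided each library's reads per gene by a single size factor. Multiplied back, 100% of the deposited values gave whole reads at a tolerance of 0.01. Tools listed in the submitters' processing notes are HTSeq 0.9.1, TopHat2 2.1.1, DESeq2 and R 3.4.0, with build hg38. The annotation release and the strand setting of counting are not given in the sources used here. Symbols and coordinates came from GENCODE 44, in which 56948 of 58051 identifiers were found.

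Genes with a value of 10 or more in at least 3 of 14 libraries were tested. limma 3.58.1 (R 4.3.3) was fitted to log2(value + 1) with 1 model of 4 groups, 10 residual degrees of freedom, an intensity trend and robust empirical Bayes, two-sided, with Benjamini-Hochberg adjustment over 17102 genes at 0.05. On simulated counts, with equal means in the control groups and opposed changes only, the test of the difference was checked for recovery of known changes. The controls differed in the data, so the check does not bear on the classes. Each result was recomputed with upper-quartile or TMM scaling, a pseudocount of 5 or 0.5, the filter at 50 or absent, the robust option off, sample quality weights, recovered reads in DESeq2 1.42.0 and in edgeR 4.0.16, a replicate block, an interval of 0.5, each control as the common control, and each library left out. hWT as the common control was added after the controls were seen to differ. Whether replicate numbers in the labels pair libraries was checked by correlating deviations from group means: same-numbered libraries correlated at 0.22, 0.248 and 0.402 between hOE-Dox and hOEplusDox and at 0.222, 0.175 and 0.283 between hWT and hOE-Dox, but at 0.237, -0.289 and 0.127 between hWT and hKO, so numbers paired the first 2 comparisons and not the third. Figures were drawn with matplotlib 3.10.9 and Python 3.11.15.

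The comparison, the 38 gene lists and the tests were chosen with earlier results of these data known. The naming rule takes CTNNB1 and, among genes with a symbol, a mean of at least 100 and groups that do not overlap in each arm that calls them, the 8 opposed genes of each direction and the 5 genes up and 5 down in both arms with the largest smaller effect, the 4 genes of each one-sided class and direction with the largest difference, and from every list the 3 members (or fewer) with the lowest adjusted p among those called, or failing any call the 2 with the highest mean. It names 141 genes, and 108 of the 119 printed come from it. Some genes that it names are not reported here.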

Additional observations from a re-analysis of the deposited data

Results flagged for a closer look

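In 4 of the printed genes 1 hKO library lay farther from the other 4 than Dixon's criterion for 5 samples allows, which chance alone flags in about 1 in 20 groups. LEF1 stood at 131.2 in hKO 4 against 76.06 to 86.92 in the others, and VCAM1 at 314.6 in hKO 3 against 27.71 to 94.32. NTN1 stood at 1043 in hKO 1 against 851.0 to 906.5. FGF18 was at 0 in hKO 1 against 1.79 to 1.889, a gap of 2 reads under the floor of 3. The difference of LEF1 and NTN1 stayed called, and that of FGF18 too, when any 1 library was left out.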

How the results depend on the processing

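Counts of calls in the difference, in each arm and between the controls, and of opposed genes, moved by less than 1.5 times under the other pseudocounts, filters, scalings and weights, without the robust option, and with edgeR and DESeq2, which called 2412 and 2602 genes higher and 2430 and 2395 lower in the difference; edgeR gives no interval, so one-sided and like-size classes were not counted with it. TMM and upper-quartile scaling shifted the median difference by -0.009 and -0.054. With hOE-Dox as the common control the KO effect was called in 360 genes, and the classes held 109 genes up with Dox and down in hKO, 20 opposed the other way, 8 up in both, 56 down in both, 2843 Dox-sided, 53 KO-sided and 16 of like size. With hWT as the common control they held 243 and 255 opposed genes, 242 up and 356 down in both, 603 KO-sided and 303 of like size. Under either control SEMA5A turned to 1.1 and ADCY2 to -1.07. An interval of 0.5 left 557 Dox-sided, 58 KO-sided and 12 like-size genes. Leaving out each library gave 2169 to 2611 genes higher and 1969 to 2354 lower in the difference, 3352 to 4610 called with Dox, 1637 to 2421 in hKO, 421 to 1079 between the controls, 355 to 476 and 459 to 630 opposed, 47 to 74 up and 118 to 152 down in both, 1226 to 1669 Dox-sided, 251 to 407 KO-sided and 55 to 82 of like size. The control calls fell from 982 to 421 without hOE-Dox 1, 548 without hOE-Dox 3 and 479 without hWT 3, and without hWT 3 the genes up in both fell to 47 and KO-sided genes to 251. The cause was not tested. Of 110 printed genes called in the difference, 2 (CCNB1 and TLE2) lost the call in at least 1 of 27 settings, and of the printed genes not called 8 gained one: NFIA at 3.21, GAD1 at 2.09, CSMD2 at 1.68, VCAM1 at -2.9, NR2E1 at -2.19, SEMA5A and ADCY2 with either common control, and NTRK2 with the block below.

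Replicate numbers paired the libraries of the Dox arm and of the controls but not those of the KO arm: over all groups 12 of 18 same-number correlations were over 0.1, and the best match had the same number in 23 of 36 cases. With the replicate number as a block, 2849 genes were called higher and 2503 lower in the difference, 4921 with Dox, 2483 in hKO and 1241 between the controls, 531 and 619 were opposed, 66 rose and 171 fell in both, 1784 were Dox-sided, 521 KO-sided and 90 of like size. The difference of NTRK2, 0.89 (limma adjusted p = 0.28), was called under the block, at 1.28 (limma adjusted p = 0.027), but was -0.41 (limma adjusted p = 0.46) with either common control. CCNB1 lost its call under the block, and no other printed gene gained or lost one.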
